A study of Mus musculus with 14 samples.

Results

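The 10 genes described here encode chains of collagen IV (Col4a1, Col4a2, Col4a5, Col4a6), chains of laminin (Lama1, Lama5, Lamb1, Lamc1) and the nidogens (Nid1, Nid2). They were picked by symbol from the 24054 genes in the deposited tables, with earlier results of these data known, and all 10 were found in each of the 14 mouse libraries.

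The libraries were made from sorted embryonic stem cells (ESCs) and their derivatives, and asked how the transcription factor Foxa2 acts in endoderm differentiation. In the knock-in/knock-out lines a nuclear Venus reporter takes the place of the Foxa2 coding region, on a single allele in control cells (con) and on both alleles in ko cells, so Venus marks cells in which the Foxa2 promoter is active. The d0con and d0ko groups, with 2 libraries each, were ESCs kept for a day without LIF on red-fluorescent feeder fibroblasts and sorted as Cherry-negative. The d3con and d3ko groups, with 3 libraries each, were Venus-positive cells sorted at day 3 of culture on Wnt3a-secreting feeders with 12 ng/ml Activin A. The d2-FVFn and d2-FVFp groups, with 2 libraries each, came from another ESC line, T119, in which doxycycline induces a Foxa2-Venus fusion. These cells grew without feeders in LIF and serum with 40 ng/ml doxycycline for 48 h and were split by Venus into negative and positive cells, and since both groups had the drug, no untreated library is part of that comparison. Every con and ko group drew on 2 clones, and at day 3 replicates 1 and 3 of a group carried the same clone name. The labels do not say whether replicates were separate cultures, so p-values measure the spread between these libraries, which may be partly technical. The main edgeR p-values rest on a spread pooled over all groups of a fit, so they do not measure that of the compared groups alone.

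Basement membranes are thin sheets of extracellular matrix on which epithelia rest. Laminins, each a trimer of an alpha, a beta and a gamma chain, polymerise at the cell surface where integrins and dystroglycan bind them, collagen IV trimers form a second, covalently linked network, and nidogens bind both. In the early mouse embryo laminin with the alpha1 chain is among the earliest to be laid down, alpha5 becomes the alpha chain of most later epithelia, and extraembryonic endoderm is a rich source of collagen IV and laminin.

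Library totals ranged from 14142788 to 27278237 expected counts. Foxa2 itself was at 0.07 to 0.19 TPM (a relative transcript level scaled for gene length and library total) in the day 0 and d3ko libraries, at 34.8 to 58.6 in d3con, at 2.01 and 2.99 in d2-FVFn and at 159.8 and 169 in d2-FVFp, as the labels require. The sum of 6 pluripotency genes was 562 to 985 TPM in d3con but 15431, 2668 and 17364 TPM in d3ko replicates 1, 2 and 3, and the sum of 8 definitive endoderm genes was 837 to 1392 TPM in d3con against 108, 202 and 36.4 TPM. Most of the pluripotency sum was Dppa5a, which stood at 12796 and 13310 TPM in d0ko, at 400 to 536 TPM in d3con and at 1867 to 15543 TPM in d3ko. Pou5f1 was at 501 to 944 TPM in d3ko, below the 1335 and 1457 TPM of d0ko and above the 59.7 to 319 TPM of d3con, and Zfp42 was at 40.05 to 400.05 TPM in d3ko against 568 and 575 TPM in d0ko. In these bulk libraries more cells of a type and more RNA per cell cannot be told apart.

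Col4a1 and Col4a2, which encode the alpha1 and alpha2 chains of the common collagen IV trimer, lie head to head on chromosome 8. Col4a1 spans 11198423 to 11312889 on the minus strand and Col4a2 spans 11312805 to 11449287 on the plus strand (GRCm38), so the annotated genes overlap by 85 bases. Their promoter windows, taken from RefSeq (GRCm38.p6) as 250 bases before and 50 bases after an annotated start, are shown because both genes rose in 3 of the comparisons described further on. Capitals mark the 78 bases that both windows hold, chr8:11312777-11312854, read on opposite strands. The Col4a1 window is chr8:11312777-11313076 on the minus strand and the Col4a2 window is chr8:11312555-11312854 on the plus strand.
Col4a1: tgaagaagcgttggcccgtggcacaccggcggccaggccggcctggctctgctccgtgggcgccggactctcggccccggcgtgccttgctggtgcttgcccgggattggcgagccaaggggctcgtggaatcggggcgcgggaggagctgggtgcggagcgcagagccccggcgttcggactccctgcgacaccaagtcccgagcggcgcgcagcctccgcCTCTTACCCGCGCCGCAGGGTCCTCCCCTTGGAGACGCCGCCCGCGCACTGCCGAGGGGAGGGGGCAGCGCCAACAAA
Col4a2: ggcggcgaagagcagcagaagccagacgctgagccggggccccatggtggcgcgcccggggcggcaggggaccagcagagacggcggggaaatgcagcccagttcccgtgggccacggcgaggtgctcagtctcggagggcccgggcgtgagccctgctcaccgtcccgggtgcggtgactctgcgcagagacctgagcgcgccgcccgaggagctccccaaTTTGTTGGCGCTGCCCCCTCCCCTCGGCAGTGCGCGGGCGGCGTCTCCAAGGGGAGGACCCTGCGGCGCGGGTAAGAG

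Windows were found in the RefSeq table for 7 of the 10 genes, all but Lama1, Lamc1 and Nid2. The windows of Lamb1 (chr12:31265043-31265342, plus strand) and Nid1 (chr13:13437352-13437651, plus strand) are shown because they are the 2 genes for which the effects of losing and of inducing Foxa2 differed by edgeR, a test given further on. Here capitals mark CCAAT boxes (CCAAT) and GC boxes (GGGCGG) on either strand.
Lamb1: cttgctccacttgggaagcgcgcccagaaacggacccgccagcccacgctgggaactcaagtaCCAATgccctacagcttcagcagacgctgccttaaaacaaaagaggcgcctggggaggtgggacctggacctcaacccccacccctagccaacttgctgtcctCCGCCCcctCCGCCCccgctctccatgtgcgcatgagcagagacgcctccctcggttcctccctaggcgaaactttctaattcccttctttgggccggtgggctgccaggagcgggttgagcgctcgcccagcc
Nid1: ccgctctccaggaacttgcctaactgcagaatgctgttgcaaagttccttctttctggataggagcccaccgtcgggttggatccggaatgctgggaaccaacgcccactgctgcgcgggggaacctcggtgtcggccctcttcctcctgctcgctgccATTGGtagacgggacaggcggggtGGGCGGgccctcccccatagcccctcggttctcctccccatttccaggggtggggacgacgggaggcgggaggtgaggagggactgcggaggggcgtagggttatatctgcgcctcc

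A GC box was found in all 7 windows and a CCAAT box in 5 of them, against 35.9% and 37.9% of the 27025 windows in the table. The only GC box of Col4a1 lies in the bases shared with Col4a2, so that site is counted in both windows. Words of the kind bound by Foxa factors were searched on either strand, namely TGTTTAC and its close relative TGTTTGC, together with the less common form TATTTAC and likewise with TATTTGC. They were in none of the 7 windows and in 13.4% of all windows. A Gata-type word (AGATAA) and a TATA word (TATAAA) were likewise in none, against 11.4% and 14.2% of all windows. These letters do not show whether a factor was bound, inside the windows or outside them. The paper places the majority of Foxa2 binding sites outside promoters. The GC content was 74% for Col4a1, 73.7% for Col4a2, 72.7% for Lama5, 64.7% for Nid1 and 63.7% for Lamb1. It was 52.7% for Col4a5 and 48.3% for Col4a6, against a median of 52.7% over all windows. The part of GC content in the counts of these words was not tested.

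The comparison of d3con with d0con describes differentiation in control cells. The 4 collagen IV genes, Lama5 and Lamb1 rose, Nid2 fell, and Lama1, Lamc1 and Nid1 did not pass the test, which asked for an adjusted p under 0.05 (edgeR's quasi-likelihood test with Benjamini-Hochberg adjustment over all genes tested) and a log2 fold change over 1 in size. That makes 7 of 10 genes called, against 35.2% of the 13899 genes tested, with 20.6% of all genes called higher and 14.6% lower. Among the 7, Col4a5 and Col4a6 reached 1 CPM (counts scaled to the library total) in at most 1 day 0 library each and passed the count filter through day 3, and 5 of the 8 other genes were called. The sum of all 10 genes went from 306 and 265 TPM in d0con to 565, 472 and 599 TPM in d3con.

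Col4a1 was at 3.83 and 3.48 TPM in d0con and at 120.3, 74.6 and 122 TPM in d3con. Every day 3 library lay far above both day 0 libraries, and replicate 2 was the lowest of the day 3 libraries. The log2 change was 4.66 (SE 0.74, edgeR adjusted p = 0.00118). Col4a2 was at 1.63 and 1.19 TPM in d0con and at 39.0, 25.0 and 34.2 TPM in d3con, a log2 change of 4.35 (SE 0.77, edgeR adjusted p = 0.00184).

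Col4a5 and Col4a6 encode chains of a collagen IV trimer found in fewer tissues, and they are a second head-to-head pair, on chromosome X, with 1274 bases between the annotated genes. Both stayed low. Col4a5 reached 1.40 to 1.75 TPM in d3con from 0.09 and 0.16 TPM in d0con, a log2 change of 3.40 (SE 0.55, edgeR adjusted p = 0.00124) on 6 and 12 counts in d0con and 101 to 134 in d3con. Col4a6 was counted 0 and 3 times in d0con and 27 to 39 times in d3con. Its edgeR adjusted p of 0.0444 went above 0.05 when any single library of the comparison was left out, with 0.0618 to 0.209 in its place.

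Of the 4 laminin chains Lamb1 and Lama5 rose. Lamb1, the beta1 chain shared by laminins with alpha1 and alpha5, was at 19.8 and 17.3 TPM in d0con and at 145, 89.2 and 167 TPM in d3con. The groups did not overlap, and the log2 change was 2.65 (SE 0.37, edgeR adjusted p = 0.000647). Lama5, the alpha5 chain, was at 16.6 and 14.4 TPM in d0con and at 72.8, 52.8 and 65.8 TPM in d3con, a log2 change of 1.85 (SE 0.27, edgeR adjusted p = 0.000882). Lamc1, the gamma1 chain, went from 42.1 and 43.0 TPM to 101, 81.9 and 99.8 TPM. Its groups did not overlap either, but its log2 change of 0.95 (SE 0.23, edgeR adjusted p = 0.00749) was just under the size the test required.

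Lama1, the alpha1 chain, was at 8.70 and 8.93 TPM in d0con and at 7.21, 9.59 and 5.69 TPM in d3con. The groups overlapped, with a log2 change of -0.43 (SE 0.40, edgeR adjusted p = 0.382). The share of alpha1 in the sum of Lama1 and Lama5 was 34.3% and 38.2% in d0con and 9.01%, 15.4% and 7.96% in d3con. These shares did not overlap. An exact two-sided permutation test gave p = 0.2, the smallest it can give for 3 against 2 libraries.

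Of the nidogens Nid2 fell and Nid1 did not pass. Nid2, the most abundant of the 10 genes at day 0, was at 191 and 165 TPM in d0con and at 66.5, 126 and 91.4 TPM in d3con, a log2 change of -1.12 (SE 0.24, edgeR adjusted p = 0.00436). Without d3con replicate 1 this became -0.92, which is short of the required size, as was the -0.97 found with the libraries of a clone summed. DESeq2 against a 2-fold change did not call it either (adjusted p = 1). Nid2 lies on chromosome 14, whose genes stood 0.19 higher (median, log2) in d0con replicate 1 than in replicate 2, a difference smaller than the fall, and its part was not tested. Nid1 was at 21.7 and 11.6 TPM in d0con and at 10.8, 10.4 and 11.6 TPM in d3con (log2 fold change -0.80, SE 0.32, edgeR adjusted p = 0.0593), and the groups overlapped at their edges.

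**Figure D1:**
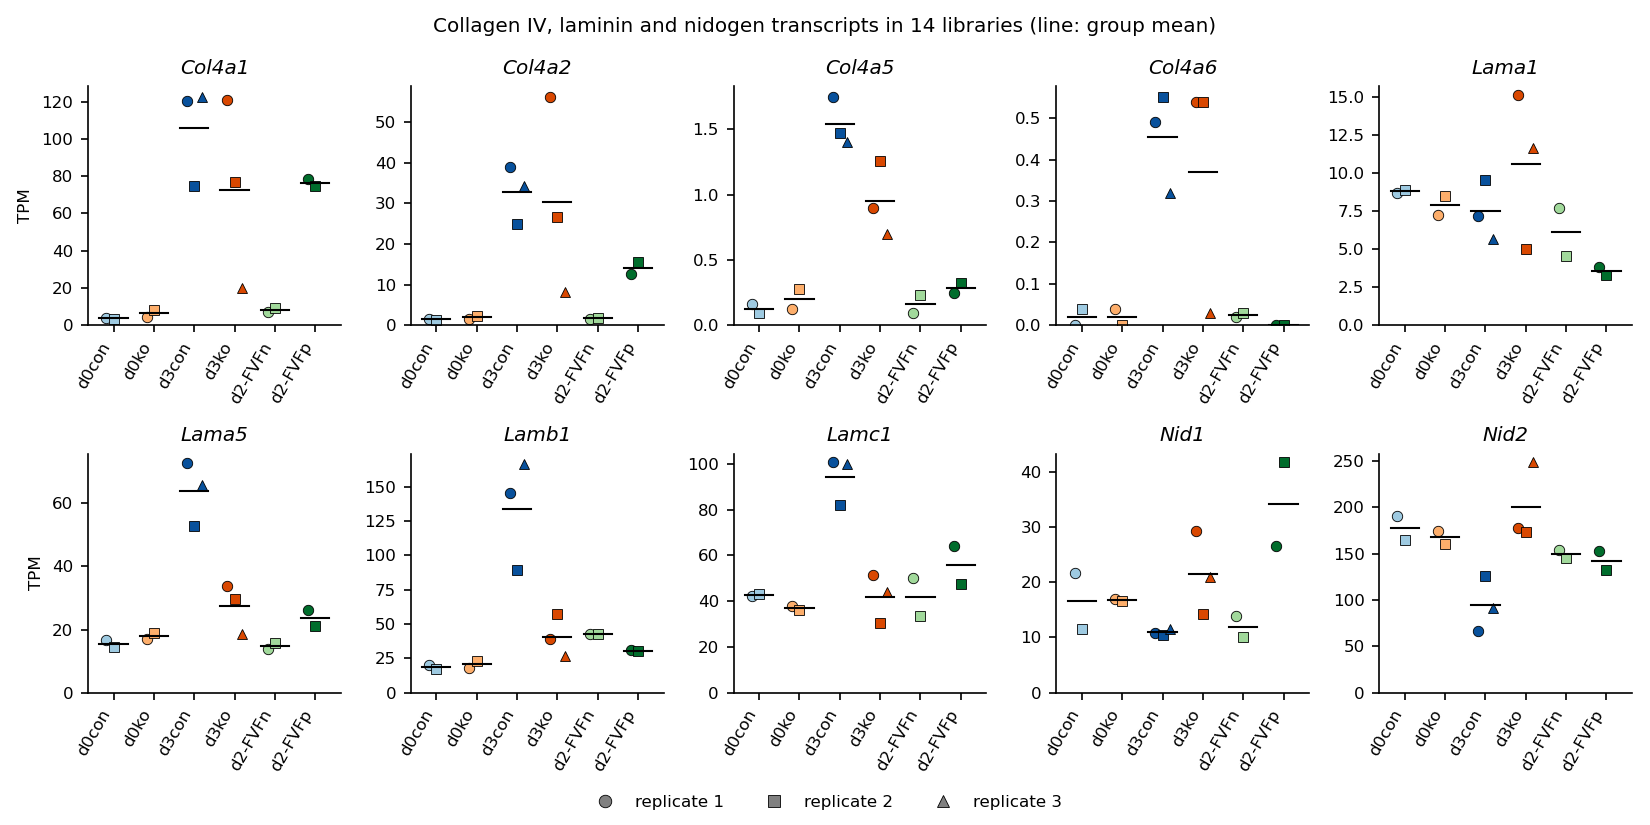
TPM of each gene (vertical axis, linear from 0) in the 14 libraries by group (horizontal axis), with a marker for each replicate number and a line at the group mean. Col4a1 and Col4a2 were high at day 3 and in d2-FVFp, Lamb1 was high in d3con, and d3ko replicate 3 was the lowest d3ko library for every collagen IV gene, Lama5 and Lamb1.

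By mean TPM the order at day 0 in d0con was Nid2 (178), Lamc1 (42.5), Lamb1 (18.6), Nid1 (16.6), Lama5 (15.5), Lama1 (8.82), Col4a1 (3.66), Col4a2 (1.41), Col4a5 (0.125) and Col4a6 (0.02). Neighbours overlapped only among Lamb1, Nid1 and Lama5. In d3con the order was Lamb1 (134), Col4a1 (106), Nid2 (94.8), Lamc1 (94.2), Lama5 (63.8), Col4a2 (32.7), Nid1 (10.9), Lama1 (7.50), Col4a5 (1.54) and Col4a6 (0.453). There the libraries of Lamb1, Col4a1, Nid2 and Lamc1 overlapped from each gene to the next. Col4a1 thus went from the seventh to the second place.

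The fibroblasts used as feeders make collagen IV and laminin themselves, and their transcripts also rose at day 3. The sum of 12 fibroblast genes was 13.3 and 15.1 TPM in d0con and 313, 54.8 and 220 TPM in d3con, and 6 of the 10 genes of this list that were tested rose, where 20.6% of all genes did (Col1a2, log2 change 4.003, SE 0.86, edgeR adjusted p = 0.00469). At most 1 gene of the list was at 0 in a day 3 library. The range of the list over d3con was 54.8 to 313 TPM while Col4a1 plus Col4a2 ranged from 99.5 to 159 TPM, and in d0ko replicate 2 the list stood at 142 TPM with Col4a1 plus Col4a2 at 10.7 TPM. The part of feeder RNA in the day 3 values was not tested. Of 10 extraembryonic endoderm genes, 8 were tested, 4 rose and 1 fell by edgeR, against 20.6% and 14.6% of all genes. The list summed to 33.7 and 54.5 TPM in d0con and to 53.5 to 72.5 TPM in d3con. Most of the d0con sum was Rhox5, the gene that fell, from a mean of 38.0 to 13.4 TPM. Those that rose were Pdgfra (mean 0.17 to 17.5 TPM), Pth1r (0.94 to 25.0 TPM), Dab2 (0.53 to 5.91 TPM) and Cubn (0.06 to 0.653 TPM). Sox7 (3.47 to 1.21 TPM), Amn (0.38 to 1.5 TPM) and Thbd (0.575 to 0.643 TPM) were not called. Afp and Ttr were not tested, with means of 0 and 0.127 TPM in d3con. The part of such cells in the collagen values was not tested. The 6 endothelial genes summed to at most 9.77 TPM in d3con.

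The comparison of d3ko with d0ko describes the same days in cells without Foxa2. Col4a1, Col4a2 and Col4a5 rose, which is 3 of 10 genes, against 17.3% of the 13899 genes tested (11.6% called higher and 5.72% lower), and no laminin or nidogen gene passed the test. Col4a5, with 11 and 23 counts in d0ko, and Col4a6 passed the count filter through day 3. Among the other genes only Col4a1 and Col4a2 were called. Col4a1 was at 4.39 and 8.38 TPM in d0ko and at 121, 77.0 and 20.2 TPM in d3ko. No d3ko library overlapped d0ko, but replicate 3 lay nearer to d0ko than to the other d3ko libraries. The log2 change was 3.36 (SE 0.69, edgeR adjusted p = 0.00825).

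Col4a2 was at 1.58 and 2.32 TPM in d0ko and at 56.2, 26.6 and 8.07 TPM in d3ko, a log2 change of 3.81 (SE 0.74, edgeR adjusted p = 0.00676). Col4a5 was at 0.12 and 0.28 TPM in d0ko and at 0.90, 1.26 and 0.70 TPM in d3ko (2.10, SE 0.51, edgeR adjusted p = 0.0152). Among the laminins Lamb1 came nearest to the threshold, with 18.3 and 23.2 TPM in d0ko against 38.7, 57.0 and 26.3 TPM in d3ko (0.80, SE 0.34, edgeR adjusted p = 0.0992). Lama5 (0.44, SE 0.26), Lamc1 (0.02, SE 0.22), Lama1 (0.27, SE 0.40), Nid1 (0.19, SE 0.32) and Nid2 (0.09, SE 0.24) had edgeR adjusted p-values from 0.221 to 0.956 as log2 fold changes in this comparison.

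Without d0ko replicate 1 no gene of the 10 was called in d3ko against d0ko (edgeR adjusted p = 0.0874 for Col4a1), without d0ko replicate 2 Col4a2 was lost (0.0513), and without d3ko replicate 3 the count was 5, with Col4a6 (0.0206) and Lamb1 (0.0299) added. Col4a5 was lost when only d3ko and d0ko were fitted (0.0637) and with DESeq2 against a 2-fold change (1), while DESeq2 on all libraries added Col4a6 (0.0255). The 12 fibroblast genes summed to 39.5 and 142 TPM in d0ko and to 296, 121 and 373 TPM in d3ko. The fibroblast sum was highest in d3ko replicate 3, the d3ko library with the least Col4a1 and Col4a2. Much of the sum was Col1a1, at 67.2 to 260 TPM in d3ko against 16.9 and 57.6 TPM in d0ko. Among genes that went the other way by mean were Dcn (10.9 to 1.98 TPM) and Postn (5.23 to 3.18 TPM). Of 10 genes of the list that were tested, 1 was called higher (edgeR) and none lower, against 11.6% and 5.72% of all genes. The part of feeder RNA in these values was not tested.

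Setting d3ko against d3con asks what the loss of Foxa2 changed on day 3, and this comparison shares the d3con libraries with the comparison of d3con and d0con. Lama5, Lamb1 and Lamc1 were lower in d3ko, Nid2 was higher, and no collagen IV gene was called. That is 4 of 10 genes, against 8.26% of the 13899 genes tested (4.75% higher and 3.51% lower). All 4 directions held in all 15 alternative fits, but all 4 calls were lost in 6 of them.

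Lamb1 was at 145, 89.2 and 167 TPM in d3con and at 38.7, 57.0 and 26.3 TPM in d3ko. The groups did not overlap, and the log2 change was -1.73 (SE 0.30, edgeR adjusted p = 0.0133). Lama5 was at 72.8, 52.8 and 65.8 TPM in d3con and at 33.8, 29.6 and 18.5 TPM in d3ko, again without overlap (-1.23, SE 0.23, edgeR adjusted p = 0.0158). Lamc1 was at 101, 81.9 and 99.8 TPM in d3con and at 51.3, 30.5 and 44.2 TPM in d3ko (-1.17, SE 0.20, edgeR adjusted p = 0.0127). The 3 chains that form a laminin with alpha5 were thus each below every control library.

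Nid2 was at 66.5, 126 and 91.4 TPM in d3con and at 178, 174 and 249 TPM in d3ko. Every d3ko library lay above every d3con library, within or above the day 0 range of 160.3 to 191 TPM (log2 fold change 1.09, SE 0.22, edgeR adjusted p = 0.0188). Nid1 was at 10.8, 10.4 and 11.6 TPM in d3con and at 29.3, 14.2 and 20.8 TPM in d3ko. The groups did not overlap, but the change did not pass (0.97, SE 0.29, edgeR adjusted p = 0.0639). Lama1 was at 15.2, 5.04 and 11.6 TPM in d3ko, on both sides of d3con (0.51, SE 0.36, edgeR adjusted p = 0.401).

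Col4a1 was at 121, 77.0 and 20.2 TPM in d3ko, so replicates 1 and 2 lay within the d3con range and replicate 3 lay far below it. The log2 change was -0.54 (SE 0.53, edgeR adjusted p = 0.548). Col4a2 had a log2 change of -0.11 (SE 0.55, edgeR adjusted p = 0.916), which turned to 0.34 without d3ko replicate 3 and to 0.07 without d3con replicate 1. Both genes lie on chromosome 8, whose genes stood at a median of -0.43 (log2) in d3ko replicate 2 against the other d3ko libraries, and chromosome X, which holds Col4a5 and Col4a6, stood at 0.226 there. The other autosomes were at 0.08 or less in size, and the part of these shifts was not tested. Col4a5 (-0.70, SE 0.41) and Col4a6 (-0.33, SE 0.99) had edgeR adjusted p-values of 0.298 and 0.865. Errors of this size do not show that the collagen genes were equal in the genotypes.

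None of the 4 calls was left when only the 6 day 3 libraries were fitted (edgeR adjusted p from 0.0585 to 0.0714), when the libraries of a clone were summed (0.0851 to 0.126) or without d3con replicate 1 (0.0508 to 0.0698) or d3con replicate 3 (0.0638 to 0.0839). The same held without both replicate 1 libraries, whose reads were inferred to be 75 bases long (0.110 to 0.159), and with DESeq2 against a 2-fold change (0.854 to 1). Lamc1 was lost without d3ko replicate 2 (-0.97) and Nid2 without d3ko replicate 3 (0.90, edgeR adjusted p = 0.0547). Nid1 was called higher without d3ko replicate 2 (1.21, edgeR adjusted p = 0.00915), and without both replicate 2 libraries 6 genes were called, Nid1 (1.16, edgeR adjusted p = 0.0201) and Lama1 (1.04, edgeR adjusted p = 0.00899) among them. Of the pluripotency genes 4 of 6 were higher in d3ko (Zfp42, 4.53, SE 0.70, edgeR adjusted p = 0.0107), against 4.75% of all genes. Of the definitive endoderm genes 4 of 8 were lower, against 3.51% of all genes. By edgeR 0 of 10 tested fibroblast genes were called, against 8.26% of all genes, and their part in the laminin values was not tested.

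**Figure D2:**
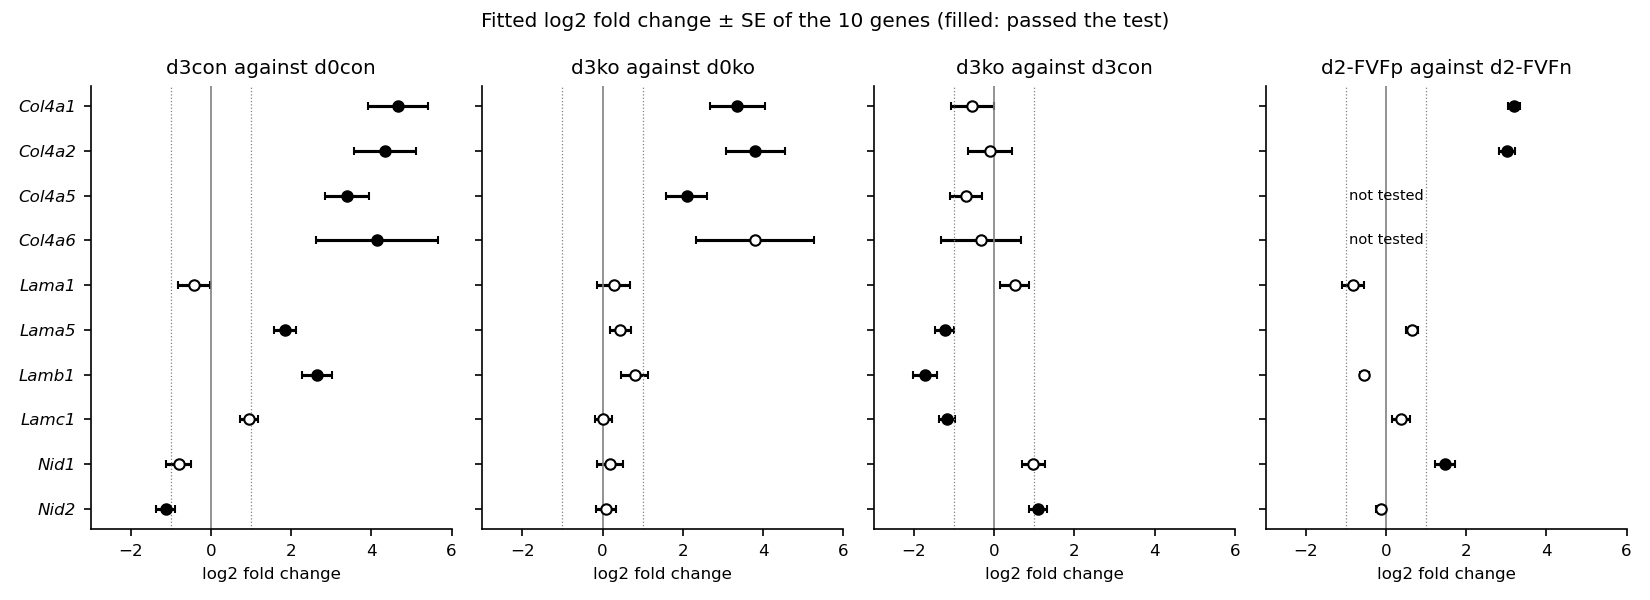
Fitted log2 fold change (horizontal axis) with its SE (bar) for each of the 10 genes (vertical axis) in 4 comparisons, filled where the test was passed and with dotted lines at a 2-fold change. The collagen genes lie right of the lines in d3con against d0con, while Lama5, Lamb1 and Lamc1 lie left of them in d3ko against d3con.

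**Figure D3:**
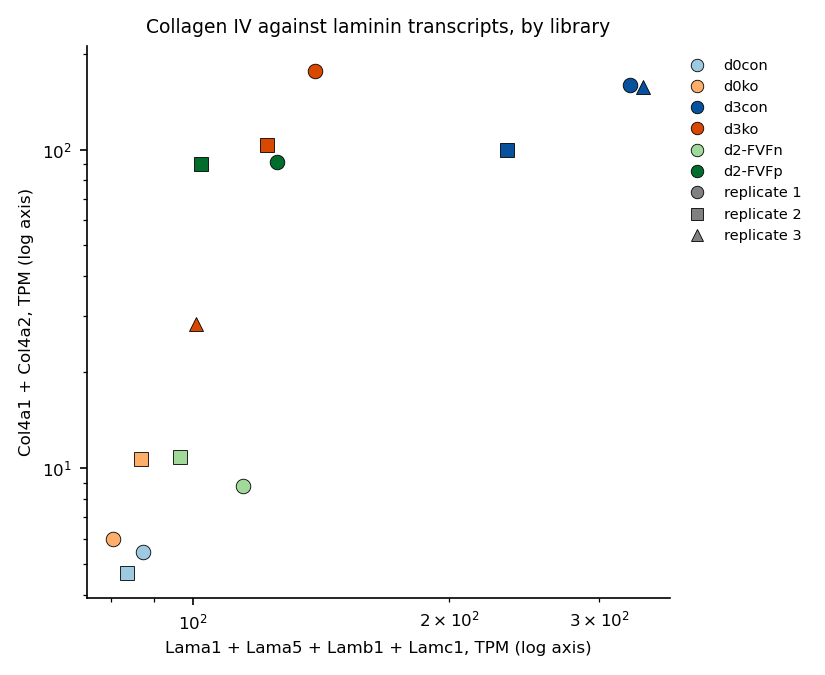
Summed TPM of Col4a1 and Col4a2 (vertical, log axis) against summed TPM of Lama1, Lama5, Lamb1 and Lamc1 (horizontal, log axis), with a point for each library. The d3con libraries lie at 234 to 338 TPM of laminin and the d3ko libraries at 101 to 139 TPM, while d3ko replicates 1 and 2 reach collagen sums of 177 and 104 TPM.

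The sums over each family were set side by side, with no test between families. Col4a1 plus Col4a2 was at 159, 99.5 and 157 TPM in d3con and at 177, 104 and 28.3 TPM in d3ko. The 4 laminin genes summed to 326, 234 and 338 TPM in d3con and to 139, 122 and 101 TPM in d3ko, against 80.5 to 87.2 TPM in the 4 day 0 libraries. For the laminin sum all 3 d3ko libraries lay between the day 0 and d3con ranges, whereas for the collagen sum 2 of 3 lay at or above the lowest d3con library.

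Whether the change over the days differed by genotype is the interaction of genotype and day, the log2 change of d3ko against d0ko less that of d3con against d0con. No gene of the 10 was called by edgeR, as none of the 13899 tested was (0% called), although 4 of the 10 and 1840 of all genes tested had an unadjusted p under 0.05, and DESeq2 called 3 of the 10 and 565 genes in all. The interaction was -1.85 for Lamb1 (SE 0.47, edgeR adjusted p = 0.174), -1.40 for Lama5 (SE 0.36, adjusted p = 0.178), -0.93 for Lamc1 (SE 0.31, adjusted p = 0.259) and 1.21 for Nid2 (SE 0.34, adjusted p = 0.202). DESeq2 gave -1.83 for Lamb1 (adjusted p = 0.0137), -1.39 for Lama5 (0.0237) and 1.22 for Nid2 (0.027). For Col4a1 it was -1.30 (SE 0.86, edgeR adjusted p = 0.556) and for Col4a2 -0.54 (SE 0.91, adjusted p = 0.858). Without d3ko replicate 2 edgeR called Lamb1 (-2.15, adjusted p = 0.0176) and Nid2 (1.31, adjusted p = 0.0491). Lama1 and Lamc1 were called by neither tool.

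At day 0 none of the 10 genes differed between d0ko and d0con by edgeR or by DESeq2, and none had an unadjusted p under 0.05, where 0% of 13899 genes were called. The log2 fold changes of the laminin and nidogen genes lay between -0.24 for Lamc1 (SE 0.24) and 0.17 for Lama5 (SE 0.28). Col4a1 was at 0.76 (SE 0.67, edgeR adjusted p = 1), with d0ko replicate 2 the highest of the 4 libraries at 8.38 TPM. That library also had the most fibroblast transcripts at day 0, 142 TPM against 13.3 to 39.5 TPM in the others, and their part in its Col4a1 level was not tested.

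The comparison of d2-FVFp with d2-FVFn asks what Foxa2 changed when it was switched on in ESCs. Col4a1, Col4a2 and Nid1 rose, none of the 10 genes was called lower, and Col4a5 and Col4a6 fell below the count filter. That is 3 of 8 genes tested, against 8.43% of the 12943 genes tested (6.96% higher and 1.47% lower).

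Col4a1 was at 7.14 and 9.09 TPM in d2-FVFn and at 78.5 and 74.5 TPM in d2-FVFp. The groups stood far apart and each was tight, with a log2 change of 3.19 (SE 0.16, edgeR adjusted p = 0.000269). Col4a2 was at 1.63 and 1.72 TPM in d2-FVFn and at 12.6 and 15.6 TPM in d2-FVFp, a log2 change of 3.03 (SE 0.20, edgeR adjusted p = 0.00082). The 12 fibroblast genes were near 0 in this feeder-free line, at 3.46 to 5.28 TPM in all 4 libraries with up to 4 of them at 0, and Col1a1 was at 1.05 to 1.58 TPM. Of 10 extraembryonic endoderm genes, 1 of 6 tested rose, Pdgfra (3.55, SE 0.73, edgeR adjusted p = 0.0199), against 6.96% of all genes. The list summed to 67.4 and 88.1 TPM in d2-FVFn and to 42.2 and 87.5 TPM in d2-FVFp. Most of that was Rhox5, with means of 68.8 and 53.1 TPM, so the sum says little of the other genes. Pdgfra went from a mean of 0.105 to 1.28 TPM and Dab2 from 5.23 to 4.54 TPM. The part of such cells was not tested.

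Nid1 was at 13.8 and 10.1 TPM in d2-FVFn and at 26.6 and 41.7 TPM in d2-FVFp (log2 fold change 1.47, SE 0.25, edgeR adjusted p = 0.0115). Without d2-FVFn replicate 2 its log2 fold change was 1.27 and the call was lost. DESeq2 against a 2-fold change did not call Nid1 either (log2 fold change 1.47). Nid2 was at 154 and 145 TPM in d2-FVFn and at 152 and 132 TPM in d2-FVFp, with overlap (-0.12, SE 0.12, edgeR adjusted p = 0.518).

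No laminin gene passed the test in this line. Lama5 was at 13.9 and 15.6 TPM in d2-FVFn and at 26.3 and 21.2 TPM in d2-FVFp, higher with a log2 change of 0.64 (SE 0.15, edgeR adjusted p = 0.0299) that was under the required size. Lamb1 was at 43.0 TPM in both d2-FVFn libraries and at 31.3 and 29.98 TPM in d2-FVFp, lower by a log2 change of -0.54 (SE 0.12, edgeR adjusted p = 0.0279), also under the required size. Lamc1 overlapped between the groups (0.37, SE 0.22, edgeR adjusted p = 0.283). Lama1 was at 7.70 and 4.57 TPM in d2-FVFn and at 3.83 and 3.33 TPM in d2-FVFp (-0.83, SE 0.27, edgeR adjusted p = 0.0739).

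In mean TPM d2-FVFp held Nid2 (142), Col4a1 (76.5), Lamc1 (55.8), Nid1 (34.1), Lamb1 (30.6), Lama5 (23.7), Col4a2 (14.1), Lama1 (3.58), Col4a5 (0.285) and Col4a6, listed at 0 in both libraries. Only the libraries of Nid1 and Lamb1 overlapped as neighbours. In d2-FVFn Col4a1 stood sixth, at 8.12 TPM, with its libraries overlapping those of Lama1 at 6.14 TPM.

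Ratios within a family were compared next. The alpha1 share of Lama1 plus Lama5 was 35.7% and 22.7% in d2-FVFn and 12.7% and 13.6% in d2-FVFp, without overlap, and 2 against 2 libraries cannot give an exact permutation p below 0.333, which was the value found. In d3ko it was 31.0%, 14.6% and 38.6%, against 7.96% to 15.4% in d3con (exact two-sided permutation test, p = 0.2, the smallest possible being 0.1). Replicate 2, the d3ko library with the fewest pluripotency transcripts, lay within the d3con range and the other d3ko libraries near the day 0 range of 29.8% to 38.2%.

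The log2 ratio of Col4a1 to Col4a2 TPM was 1.39 ± 0.22 in d0con (SD, n = 2), 1.66 ± 0.27 in d0ko (SD, n = 2), 1.68 ± 0.14 in d3con (SD, n = 3), 1.32 ± 0.22 in d3ko (SD, n = 3), 2.27 ± 0.19 in d2-FVFn (SD, n = 2) and 2.45 ± 0.27 in d2-FVFp (SD, n = 2). Its mean was higher at day 3 than at day 0 in con, without overlap (exact two-sided permutation test, p = 0.2, the smallest for 3 against 2), and lower at day 3 in ko, with overlap. The d3ko libraries lay below the d3con libraries, and the exact two-sided permutation test gave p = 0.1, the smallest it can give for 3 against 3. In the doxycycline line the groups overlapped (exact permutation p = 0.667).

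**Figure D4:**
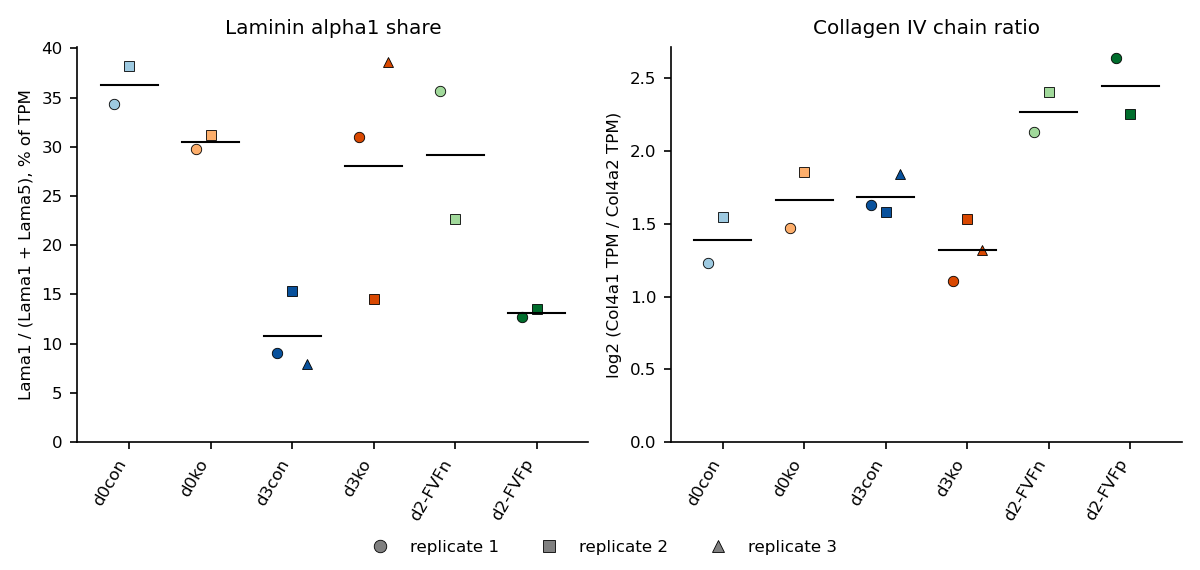
Share of Lama1 in the summed TPM of Lama1 and Lama5 (left, percent) and log2 ratio of Col4a1 to Col4a2 TPM (right) in each library by group, with lines at the group means. The alpha1 share is at most 15.4% in d3con and d2-FVFp and at least 22.7% in the other groups except d3ko replicate 2 at 14.6%.

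**Figure D5:**
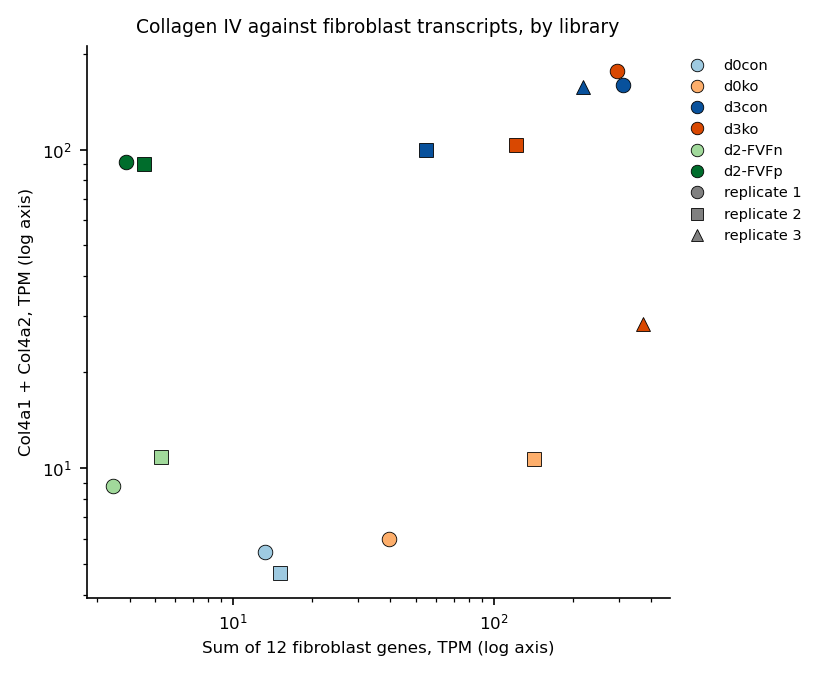
Summed TPM of Col4a1 and Col4a2 (vertical, log axis) against the summed TPM of 12 fibroblast genes (horizontal, log axis), with a point for each library. The d2-FVFp libraries reach 90.1 and 91.2 TPM of collagen IV at fibroblast sums of 3.89 and 4.53 TPM, and d3ko replicate 3 holds 28.3 TPM at the highest fibroblast sum, 373 TPM. Much of the fibroblast sum at day 3 was Col1a1, and the part of feeder RNA in collagen IV was not tested.

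Loss and induction of Foxa2 were then set side by side as a difference of Foxa2 effects, d3con minus d3ko less d2-FVFp minus d2-FVFn, a comparison chosen after the values were seen and fitted over all 14 libraries. The arms differ in cell line, day, medium and feeders, which cannot be told apart from the way Foxa2 was altered. Of 14312 genes tested 3.7% were called (0.929% higher and 2.77% lower), and of the 10 genes Lamb1 and Nid1 were. For Lamb1, called lower in d3ko and not called with induced Foxa2 (-0.54), the difference was 2.27 (SE 0.43, edgeR adjusted p = 0.0237). For Nid1, not called in d3ko against d3con (0.97) and called higher with induced Foxa2, it was -2.43 (SE 0.46, edgeR adjusted p = 0.0237). For Col4a1 (-2.64, SE 0.78) and Col4a2 (-2.91, SE 0.83) the difference was larger in size but had edgeR adjusted p-values of 0.0791 and 0.072. DESeq2 called 4 of the 10 genes, with Col4a1 (DESeq2 adjusted p = 0.0073) and Col4a2 (0.0046) added to Lamb1 and Nid1. Without any single doxycycline library, or without d3con replicate 3, edgeR called none of the 10.

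Over all 14 libraries the genes with the pattern most like that of Col4a1 were Farp1 (Pearson r of log2(TPM + 1) 0.98), App (0.98), Zfand3 (0.98), Fbn2 (0.97) and Col4a2 (0.97), so that its head-to-head partner ranked 5 of 14312 genes. The libraries fall into the study's groups, so these values describe shared group differences. Among the other members Lama5 ranked 919 for Col4a1 (r 0.83), Lamb1 2366 (0.72) and Lamc1 3735 (0.61), while Nid2 ranked 11543 (-0.51). For Lama1 the nearest genes were Klf12 (0.93), Bre (0.87), Slc22a18 (0.87), Snhg12 (0.87) and 1500011K16Rik (0.86), and the nearest member was Nid2 at 2172 (0.32). Lama5 and Lamc1 ranked each other 1232 and 118 (0.82).

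Other genes of the basement membrane were counted from lists. Of 25 further chains and components 18 were tested in d3con against d0con, where 6 rose and 4 fell with a median log2 change of 0.97, against 0.07 over all genes, of which 20.6% were called higher and 14.6% lower. Smoc2, a matricellular calcium-binding protein, had 5.40 (SE 0.99, edgeR adjusted p = 0.00218). Lamb3, the beta3 chain of epithelial laminin, had 3.84 (SE 0.80, adjusted p = 0.00403), and Lama4, the alpha4 chain, had 3.06 (SE 0.74, adjusted p = 0.0077). Col18a1, which encodes a basement membrane collagen with heparan sulfate chains, fell with -3.16 (SE 0.43, adjusted p = 0.000625).

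In d3ko against d3con 1 of these 18 genes was higher and 2 were lower, against 4.75% and 3.51% of all genes. Lamb3 was lower by a log2 change of -2.95 (SE 0.64, edgeR adjusted p = 0.023) and Col18a1 higher by 1.63 (SE 0.39, adjusted p = 0.0309), while Lama4 was at 0.05 (SE 0.56, adjusted p = 0.969). With induced Foxa2 5 of 17 tested rose and none fell by edgeR, against 6.96% and 1.47% of all genes, Smoc2 among them at 2.75 (SE 0.72, adjusted p = 0.0411).

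Genes for collagen folding, crosslinking and export rose at day 3 in 6 of 18 cases tested and fell in 1, with a median log2 change of 0.63. Of all genes 35.2% were called (20.6% higher and 14.6% lower), so the count of 7 called lies near the share of all genes. Serpinh1, the collagen chaperone, had a log2 change of 3.62 (SE 0.37, edgeR adjusted p = 0.000234) in d3con against d0con, of 2.76 (SE 0.35, adjusted p = 0.00137) in d3ko against d0ko and of 1.60 (SE 0.19, adjusted p = 0.00353) in d2-FVFp against d2-FVFn. Pxdn, the peroxidase that crosslinks collagen IV, had 4.20 (SE 0.56, adjusted p = 0.000556) in d3con against d0con, 2.55 (SE 0.51, adjusted p = 0.00762) in d3ko against d0ko and 0.23 (SE 0.17, adjusted p = 0.39) with induced Foxa2. Leprel1, a prolyl 3-hydroxylase now named P3h2, had 5.26 (SE 1.19, adjusted p = 0.00577) in d3con against d0con, and P4ha3, a prolyl 4-hydroxylase subunit tested only in the doxycycline line, had 6.43 (SE 0.87, adjusted p = 0.00511). None of the 18 was called in d3ko against d3con by edgeR, where 8.26% of all genes were. Pxdn was at -1.46 there (SE 0.42, edgeR adjusted p = 0.0551).

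Of 14 receptor genes tested 5 fell in d3con against d0con and none was called higher by edgeR, against 14.6% and 20.6% of all genes, and 9 were not called. The median log2 change was -0.42, and Itgb1, the beta1 integrin chain, had 0.99 (SE 0.21, edgeR adjusted p = 0.00466), just under the required size. Those that fell included Itga1, an integrin chain for collagen (-3.93, SE 0.58, edgeR adjusted p = 0.000898), Bcam, a receptor for laminin alpha5 (-2.82, SE 0.35, adjusted p = 0.00044), and Itgb4, the beta4 integrin chain of laminin receptors (-2.25, SE 0.49, adjusted p = 0.00484). With induced Foxa2 5 of 13 tested rose and none was called lower by edgeR, against 6.96% and 1.47% of all genes. Itgb4 was among them, at 2.38 (SE 0.22, edgeR adjusted p = 0.00197), as was Itgav, the alphav chain, at 2.09 (SE 0.16, adjusted p = 0.00118).

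Of 13 genes for proteases and their inhibitors 11 were tested, and 8 rose and 1 fell in d3con against d0con, against 20.6% and 14.6% of all genes. Mmp15, a membrane-bound metalloproteinase, rose at day 3 with 3.49 (SE 0.26, edgeR adjusted p = 0.000132), was lower in d3ko than in d3con with -2.59 (SE 0.21, adjusted p = 0.00226) and rose with induced Foxa2 with 1.93 (SE 0.22, adjusted p = 0.00325). Plat, the tissue plasminogen activator, had 2.05 (SE 0.52, adjusted p = 0.0101) in d3con against d0con and 4.40 (SE 0.29, adjusted p = 0.00082) in d2-FVFp against d2-FVFn. Mmp9, a protease that cleaves collagen IV, had 3.53 (SE 0.92, adjusted p = 0.011) and 2.73 (SE 0.28, adjusted p = 0.00218) in the same comparisons, and Adamts9 had 3.97 (SE 0.76, adjusted p = 0.00271) and 1.25 (SE 0.37, adjusted p = 0.0591).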

How the data were processed

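RNA from sorted mouse cells was made into low-input libraries, which the authors aligned with STAR to mm10 (GRCm38) and quantified per library with RSEM, versions not given in the sources used here. In the deposited tables an expected count is the number of reads that RSEM assigned to a gene, with no correction for depth. The authors' TPM values, also from RSEM, are corrected for gene length and library total. FPKM values were not used. The paper states 50-base reads. Read length was inferred here from the gap between each gene's length and the effective length that RSEM gave it. It came to 75 bases in replicate 1 of both day 3 groups and 50 bases in the other libraries. Of genes with counts, 13.7% (d3con) and 13.6% (d3ko) had fractional counts in those replicate 1 libraries, against 41.5% to 57.3% in the others.

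Groups and replicate numbers came from sample titles. Expected counts were rounded, genes with at least 1 CPM in 2 libraries were kept, and counts were TMM-scaled and tested with edgeR 4.0.16 (R 4.3.3), with all 10 day 0 and day 3 libraries in one fit and the 4 doxycycline libraries in another. A call required an adjusted p under 0.05 and a log2 fold change above 1 in size. The SE is the log2 fold change divided by the square root of F. Single ratios were tested by exact permutation (scipy). Alternatives were DESeq2 1.42.0, also on both groups alone against a 2-fold change as in the study's pairwise tests, median-of-ratios scaling, no filter, fits of only the groups compared, summed clones, replicate blocks and libraries left out. The tests were checked on simulated counts. For edgeR these were drawn as independent libraries with the same spread in every group, so the check does not cover shared clones or unequal spread.

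All 10 genes and Foxa2 were named, with up to 4 genes a context list by size of change among those called and the 5 genes most like Col4a1 and Lama1. The members and lists were chosen with earlier results of these data known. Symbols of the lists were matched to the tables by RefSeq synonyms. The difference of Foxa2 effects, and clone sums outside d3ko against d3con, were added after the data were seen.

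Same-numbered d0 and d3 libraries came from the same clone by name, which pairs them, although their deviations from group means correlated at only -0.04 to 0.063. Same-numbered d3con and d3ko libraries came from different clones and were not taken as pairs in the main fits (correlations 0.54, 0.294 and -0.014), although both replicate 1 libraries share their inferred read length. For same-numbered d2-FVFn and d2-FVFp libraries the correlation was 0.288. The main fits paired no libraries, the replicate block grouped all same-numbered libraries of a fit, and no block by clone was fitted. No pair of replicates agreed within sampling noise. The chi-square per degree of freedom between replicates was 11.7 and 13.5 at day 0 and 51.7 to 155 at day 3. The fit of both days pooled these unequal spreads for each gene. Depth of 14142788 to 27278237 counts leaves Col4a5 and Col4a6, with 0 to 134 counts, the least precise.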

Additional observations from a re-analysis of the deposited data

Results flagged for a closer look

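For Lamb1 and Nid1 the effects of Foxa2 in the knock-out and the doxycycline lines differed by edgeR, in a comparison chosen after these values were seen. In each gene 1 of both arms was called, and Lamb1 with induced Foxa2 (-0.54) and Nid1 in d3ko against d3con (0.97, edgeR adjusted p = 0.0639) were not. DESeq2 against a 2-fold change called neither Lamb1 in d3ko against d3con nor Nid1 with induced Foxa2. For Lamb1 all d3con libraries (89.2 to 167 TPM) lay above all d3ko libraries (26.3 to 57.0 TPM), while both d2-FVFp libraries (29.98 and 31.3 TPM) lay below both d2-FVFn libraries (43.0 TPM each). The difference of Foxa2 effects, d3con minus d3ko less d2-FVFp minus d2-FVFn, was 2.27 in log2 units (SE 0.43, edgeR adjusted p = 0.0237). For Nid1 all d3con libraries (10.4 to 11.6 TPM) lay below all d3ko libraries (14.2 to 29.3 TPM), while the d2-FVFp libraries (26.6 and 41.7 TPM) lay above the d2-FVFn libraries (10.1 and 13.8 TPM), and the difference was -2.43 (SE 0.46, edgeR adjusted p = 0.0237). Both lost the call without any single doxycycline library or without d3con replicate 3, with their directions kept. The lines also differ in clone, day, medium and feeders, which cannot be told apart from the way Foxa2 was altered.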

How the results depend on the processing

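Median-of-ratios scaling, dropping the low-count filter, DESeq2 and the replicate block changed no call of a member in d3con against d0con, d3ko against d3con or d2-FVFp against d2-FVFn. With the replicate number as a block, as without it, 7 members were called in d3con against d0con, 3 in d3ko against d0ko, 4 in d3ko against d3con, 0 in d0ko against d0con and in the interaction, and 3 in d2-FVFp against d2-FVFn, with Lamc1 at -0.035 in d3ko against d0ko, Nid1 at 0.059 in d0ko against d0con and Col4a5 at 0.0063 in the difference of Foxa2 effects. Other signs near 0 that turned were Col4a6 in d0ko against d0con (-0.0027 with median-of-ratios scaling, -0.043 with DESeq2, -0.0047 with no filter), Col4a5 in the difference of Foxa2 effects (0.0022 with DESeq2) and Lamc1 in d3ko against d0ko (-0.097 with clones summed). In the interaction DESeq2 called 3 members and 565 genes, median-of-ratios scaling 1 gene and no filter 16 genes, against 0. In the difference of Foxa2 effects DESeq2 called 4 members and 1275 genes, and no filter 4 members, against 2 and 529. Col4a1 and Col4a2 were the members added in both. DESeq2 called 1 gene in d0ko against d0con. Fitting only the groups compared gave 1345 genes in d3ko against d0ko, without Col4a5, and 0 members and 67 genes in d3ko against d3con. DESeq2 against a 2-fold change gave 2294 genes in d3con against d0con, 411 in d3ko against d0ko, 0 members and 312 genes in d3ko against d3con, 1 gene in d0ko against d0con and 233 in d2-FVFp against d2-FVFn. Of the members it lost Col4a6 and Nid2 in d3con against d0con, Col4a5 in d3ko against d0ko and Nid1 in d2-FVFp against d2-FVFn. In d3ko against d3con, summed clones gave 0 members and 1 gene, leaving out both day 3 replicate 1 libraries 0 members and 1 gene, and leaving out both replicate 2 libraries 6 members and 2572 genes. The cause of these differences was not tested.

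With single libraries left out, members called ranged from 5 to 7 in d3con against d0con, 0 to 5 in d3ko against d0ko, 0 to 4 in d3ko against d3con, 0 to 2 in the interaction, 2 to 3 in d2-FVFp against d2-FVFn and 0 to 5 in the difference of Foxa2 effects. All genes called ranged from 3420 to 4908, 667 to 2860, 80 to 2249, 0 to 1118, 562 to 893 and 13 to 1978. Log2 fold changes that turned ranged, in d3ko against d0ko, from -0.093 to 0.62 for Lama1, -0.17 to 0.22 for Lamc1, -0.12 to 0.43 for Nid1 and -0.10 to 0.20 for Nid2. In d3ko against d3con they ranged from -0.96 to 0.34 for Col4a2 and -0.76 to 0.23 for Col4a6, and in d0ko against d0con from -0.10 to 1.08 for Col4a5, -3.94 to 3.999 for Col4a6, -0.041 to 0.26 for Lamb1 and -0.40 to 0.50 for Nid1. Col4a6 ranged from -4.33 to 3.61 in the interaction, and Col4a5 from -0.88 to 0.50 and Lama1 from -0.10 to 0.71 in the difference of Foxa2 effects. The log2 ratio of Col4a1 to Col4a2 in d2-FVFp less d2-FVFn ranged from -0.0091 to 0.37.

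Groups of 2 and 3 libraries, with 2 clones a genotype, limit what these tests can show, and where leaving out a library leaves a group with 1, that library is assumed to vary like the others. The counts of Col4a5 and Col4a6 limit their values.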
